A study of Mus musculus with 12 samples.

Results

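Lysosomal genes were followed in sorted CNS-associated macrophages after partial replacement of these cells in the mouse brain. The group holds 48 of the 56735 genes counted. They were chosen by name from textbook function, as 11 proteases, 10 glycan hydrolases and sulfatases, 6 lipid hydrolases, 4 cofactor and lipid transfer proteins, 8 membrane proteins, 7 subunits of the proton pump, and the regulators Tfeb and Tfe3. The choice was made with earlier results of these data known.

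Bulk RNA-seq was carried out on 12 libraries of CD206+ sdCAMs, subdural CNS-associated macrophages that reside in the leptomeninges and around vessels, from brains without choroid plexuses. All mice, controls included, were Mrc1CreERT2/CreERT2:R26tdT/tdT, so that the inducible Cre was expressed from both alleles of Mrc1, the gene of CD206, and both Rosa26 alleles carried the tdTomato (tdT) reporter. All received tamoxifen 4 weeks before treatment, which switches on tdT permanently in cells that express Mrc1 at that time and in their progeny. Mice then received vehicle (CTL) or BLZ945, an inhibitor of the CSF-1 receptor that depletes brain macrophages, at 200 mg per kg for 7 days, and adult cells were sorted 8 weeks later. The 3 groups of 4 libraries were tdT+ sdCAMs of CTL mice, tdT+ sdCAMs of BLZ945 mice, and tdT- sdCAMs of the same 4 BLZ945 mice. A cell lacks tdT when it came from a cell that did not express Mrc1 at induction or when recombination failed, and these libraries alone do not separate both cases. Libraries are named by mouse as F1, F2, M1 and M2, and values are listed in that order throughout. CTL mice with these labels are other animals.

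Lysosomes are acidic organelles in which proteases, glycosidases, sulfatases and lipases break down material taken up from outside the cell or delivered by autophagy. The vacuolar proton pump keeps them acidic, heavily glycosylated membrane proteins line them, and small cofactor proteins present lipids to the hydrolases. TFEB and TFE3 are transcription factors that bind E-box-like motifs near many lysosomal genes. Border macrophages and microglia both carry a large lysosomal compartment, and inherited loss of single members causes lysosomal storage disease, frequently with disease of the nervous system.

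Between 19969308 and 23395058 counts were assigned to genes per library, and 13724 genes passed the filter on low counts. Of the 48 members, 47 passed. Ctsk, the cathepsin of bone-resorbing osteoclasts, had 0 counts in all 12 libraries, where 3 counts, the limit that a count of 0 allows, correspond to at most 3.16 normalised counts. Of the 47, 46 had a mean normalised count (counts divided by the size factor of the library) of at least 1000, against 25.8% of all genes tested. The limit given for Ctsk covers counting error only.

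The labelled cell type was checked first. All 7 border macrophage markers (Mrc1, Pf4, Cd163, Lyve1, Ms4a7, Cbr2, F13a1) were detected in every group, but their summed normalised count was 196493 to 223588 in CTL tdT+, 220650 to 281881 in BLZ945 tdT+ and only 77357 to 128603 in BLZ945 tdT- libraries. The 6 microglia markers (P2ry12, Tmem119, Sall1, Siglech, Sparc, Gpr34) summed to 37768 to 51480, 55248 to 62425 and 120633 to 275502 in the same order of groups. All 6 were called higher, and all 7 border markers lower, in tdT- against either tdT+ group. The tdT- library of mouse F2 stood apart, with 422704 summed normalised counts of 5 neutrophil genes where the tdT+ groups reached at most 69.4 and 39.6, and with 32358 of the monocyte gene Chil3, which had 0 counts in the other 11 libraries. These marker values move with each difference of the tdT- group below. In bulk samples, fewer cells of a type and less RNA per cell cannot be told apart, and the part of these markers in the lysosomal results was not tested.

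**Figure D1:**
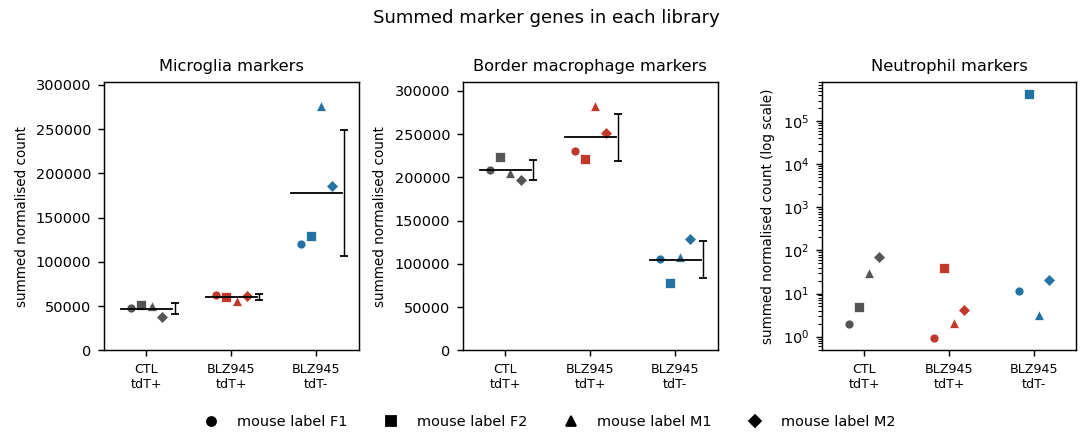
Summed normalised counts of microglia, border macrophage and neutrophil marker genes in each library, with 1 point per library and the symbol giving the mouse label (bars in the first 2 panels, mean ± SD of 4; neutrophil axis on a log scale). The tdT- libraries lie at 120633 or more for microglia markers and at 128603 or less for border markers, and tdT- F2 alone reaches 422704 for neutrophil markers.

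Levels within a library were compared per transcript length, as TPM (counts per base of exon, scaled to a common total per library). In CTL tdT+ sdCAMs, 10 members were among the 50 and 14 among the 100 most abundant genes. Ctsb, a cysteine protease, and Ctsd, the main aspartic protease of the lysosome, were the highest at 5207 ± 100.4 and 5198 ± 265 TPM (mean ± SD, n = 4), and did not differ beyond their spread. Cd68, a macrophage glycoprotein of the lysosomal membrane, followed at 3541 ± 223 TPM, Lgmn (asparaginyl endopeptidase) at 3302 ± 267 TPM and Hexa, a subunit of β-hexosaminidase, at 3071 ± 38.1 TPM. Ctsc, which activates granule proteases by trimming their ends, was at 2952 ± 233 TPM, a spread that held the mean of Hexa. At the low end of the members with counts stood Npc1 at 28.5 ± 3.7 TPM, Tcirg1 at 24.1 ± 9.1 TPM, the lysosomal calcium channel Mcoln1 at 22.4 ± 1.7 TPM and Tfeb at 21.2 ± 7.6 TPM. Tcirg1 and Tfeb overlapped in their spread with each of these, whereas the SD ranges of Npc1 and Mcoln1 did not meet.

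All members together took 5.93 to 6.24% of the counts in CTL tdT+, 6.38 to 6.64% in BLZ945 tdT+ and 5.00 to 6.65% in BLZ945 tdT- libraries. The tdT+ libraries after BLZ945 thus all lay above CTL, and the tdT- libraries spanned both. The lowest share, 5.00%, was that of tdT- F2, the library with neutrophil counts, and the highest, 6.65%, that of tdT- M1, the library with the most microglia marker counts. Of the 47 members with counts, 19 had their lowest normalised count of all 12 libraries in tdT- F2, and 29 their lowest of the tdT- group. The members varied more in tdT- libraries, with a median coefficient of variation of 17.8% against 8.43% in CTL and 8.19% in BLZ945 tdT+.

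By role, the groups separated differently. Proteases took 3.09 to 3.30% of CTL tdT+, 3.44 to 3.70% of BLZ945 tdT+ and 2.58 to 3.91% of tdT- counts, so that the tdT- libraries surrounded both other groups. Glycan hydrolases and sulfatases took 0.515 to 0.546% and 0.514 to 0.541% in both tdT+ groups but 0.417 to 0.478% in tdT- libraries, with no overlap. Lipid hydrolases (0.319 to 0.366% and 0.345 to 0.366%, against 0.255 to 0.310%) and the proton pump (0.193 to 0.219% and 0.184 to 0.219%, against 0.159 to 0.178%) were likewise below both tdT+ groups in all 4 tdT- libraries. Cofactor and lipid transfer proteins overlapped throughout, at 0.702 to 0.759%, 0.704 to 0.764% and 0.680 to 0.766%. Membrane proteins took 1.03 to 1.06% in CTL, 1.11 to 1.17% in BLZ945 tdT+ and 0.889 to 1.11% in tdT- libraries.

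**Figure D2:**
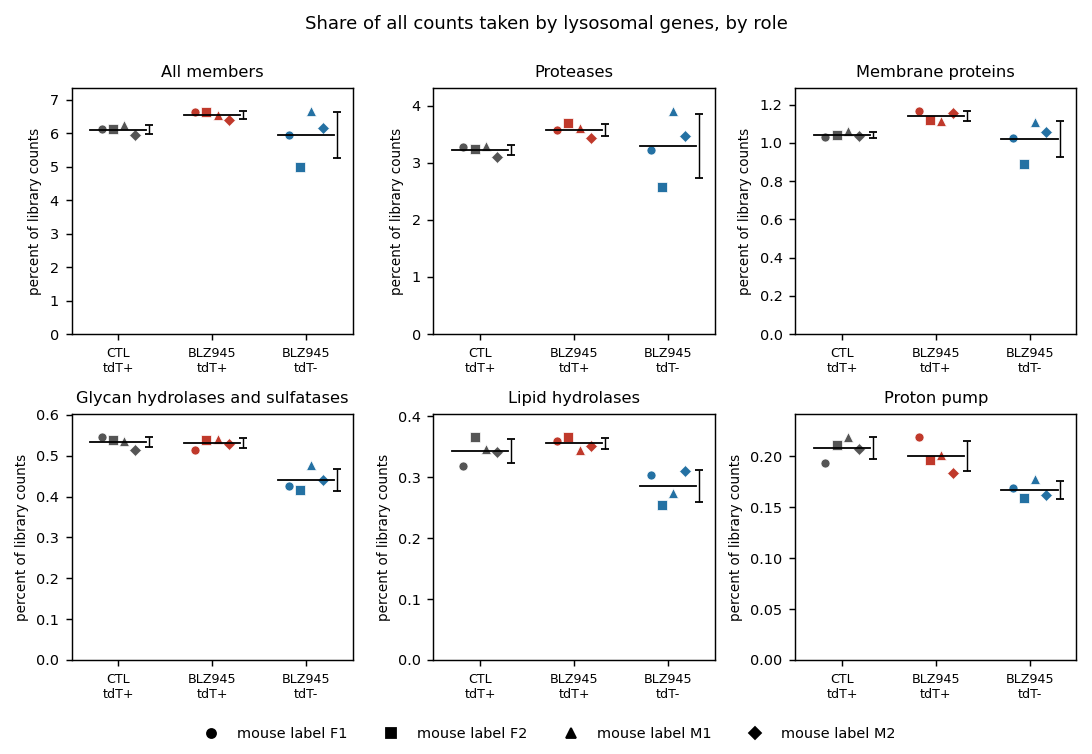
Percent of all counts of a library taken by the 48 lysosomal genes and by 5 of their roles, with 1 point per library (symbol, mouse label) and bars giving the mean ± SD of 4 libraries. In tdT- libraries the glycan hydrolases, lipid hydrolases and proton pump subunits lie below every tdT+ library, whereas the proteases range from 2.58 to 3.91% and span both other groups.

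The next comparison asked how lysosomal transcripts of tdT- sdCAMs differed from those of the tdT+ sdCAMs that shared their brain. The members changed in both directions and by less than 2-fold. With DESeq2, at a threshold of 0.05 on the p adjusted across every gene tested, 6 members were lower in tdT- cells, namely Lipa, Galc, Gaa, Hexa, Ctsc and Lamp1, and 3 were higher, namely Ctsd, Arsb and Laptm5. These are 12.8% and 6.38% of the 47 tested, beside a background of 3.51% of all genes called lower and 2.86% called higher, a background that covers genes of all levels. No member also reached 2-fold, a bound that 2.25% of all genes passed. The unadjusted p was under 0.05 for 26 of the 47 members, beside 2170 of all 13724 genes tested. Of the members, edgeR called 4 lower (Lipa, Galc, Gaa, Ctsc) and 0 higher, beside 234 and 143 of all genes. The median log2 fold change of the members was -0.16, beside 0.00 over all genes. The 4 libraries of each group did not overlap for 13 members, 11 lower and 2 higher, which is 27.7% beside 9.35% of all genes. Within mice, 15 members were lower in the tdT- library in all 4 mice and 4 were higher in all 4, or 31.9% and 8.51%, beside 10.9% and 10.1% of all genes.

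Against CTL tdT+ cells, which asks how the tdT- cells differed from undisturbed sdCAMs, 9 members were called lower and 5 higher. The 9 were Lipa, Galc, Sgsh, Gaa, Hexa, Ctsc, Atp6v0c, Atp6v1a and Atp6v1b2, and the 5 were Ctsd, Ctsh, Ctsz, Arsb and Psap. The background was 3.49% of all genes lower and 3.27% higher, with 2.55% past 2-fold, beside 19.1%, 10.6% and 0 members. Unadjusted, 22 of the 47 members had p under 0.05, beside 2220 of all 13724 genes tested. Of the members, edgeR called Lipa, Galc, Ctsc and Atp6v0c lower and Ctsd higher, beside 246 and 200 of all genes. The median log2 fold change was -0.06 against 0.00 over all genes, and 7 members lay lower and 4 higher without overlap, 23.4% beside 9.7% of all genes. Both comparisons use the same 4 tdT- libraries, so their values are set side by side and their overlap carries no weight of its own.

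The third comparison asked whether the tdT+ sdCAMs that were present before depletion still differed from CTL 8 weeks later. DESeq2 called Glb1 and Lamp1 higher and 0 members lower, beside a background of 0.481% of all genes higher, 0.474% lower and 0.168% past 2-fold. The unadjusted p was under 0.05 for 6 of the 47 members, beside 1109 of all 13724 genes tested. With edgeR, 0 members were called and 4 had an unadjusted p under 0.05, beside 954 of all genes. The median log2 fold change was 0.02, and 7 members lay higher and 0 lower without overlap, 14.9% beside 6.72% of all genes.

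**Figure D3:**
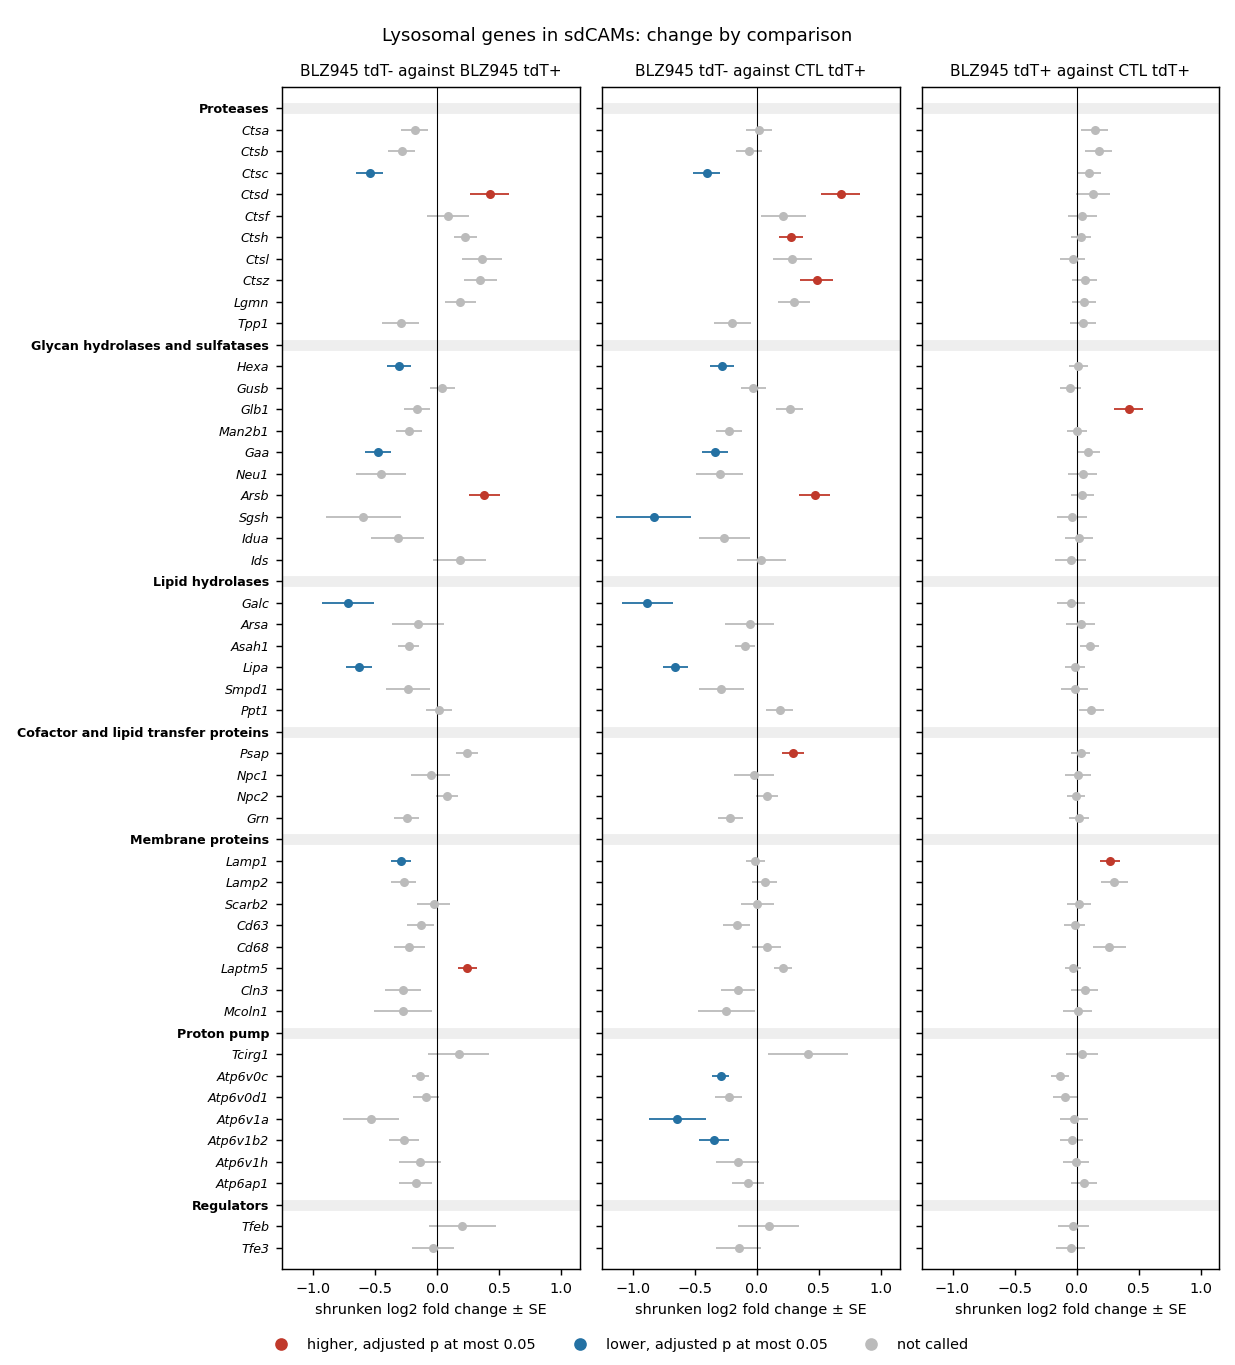
Shrunken log2 fold change ± SE of the 47 members tested, by role, in the 3 comparisons (DESeq2 with apeglm; red higher, blue lower at an adjusted p of at most 0.05, grey not called). Called members lie on both sides in both tdT- panels, from -0.88 (Galc) to 0.68 (Ctsd), whereas in the panel of BLZ945 tdT+ against CTL only Glb1 and Lamp1 are called.

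Among lipid hydrolases, Lipa (lysosomal acid lipase, which frees cholesterol and fatty acids from lipoprotein lipids; chr19:34469718-34504874, minus strand, GRCm39) had the lowest adjusted p of all members in both comparisons of tdT- cells. Its normalised counts were 9573, 10284, 10454 and 9764 in CTL tdT+, 8899, 11386, 9993 and 9241 in BLZ945 tdT+, and 6295, 5504, 6843 and 6451 in tdT- libraries. Every tdT- library was thus below every tdT+ library, and both tdT+ groups overlapped. The log2 fold change of tdT- cells was -0.63 ± 0.10 (SE) against BLZ945 tdT+ (DESeq2 adjusted p = 2.25e-08) and -0.66 ± 0.10 against CTL (DESeq2 adjusted p = 6.39e-09).

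Galc (galactosylceramidase, which degrades the myelin lipid galactosylceramide and is lost in Krabbe disease; chr12:98168553-98225718, minus strand) counted 4989, 5780, 4760 and 4629 in CTL tdT+, 4127, 5623, 3569 and 4827 in BLZ945 tdT+, and 2936, 2640, 1671 and 3151 in tdT- libraries. The tdT- group lay below both others without overlap, and tdT- M1 was its lowest. Galc changed most of all called members, by -0.72 ± 0.21 against BLZ945 tdT+ (DESeq2 adjusted p = 0.00221) and by -0.88 ± 0.21 against CTL (DESeq2 adjusted p = 1.05e-04). Lipa and Galc kept their calls in both comparisons in each of 18 other fits, edgeR and the omission of each library included. The other lipid hydrolases were called in no comparison of the reported DESeq2 fit, though Asah1, Smpd1 and Ppt1 were called in some other fits. Asah1 (acid ceramidase) averaged 40528, 44621 and 37746 normalised counts in CTL tdT+, BLZ945 tdT+ and tdT-, Smpd1 (acid sphingomyelinase) 2641, 2543 and 2051, Ppt1 9506, 10751 and 10893, and Arsa (arylsulfatase A) 1438, 1604 and 1343.

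Glycan hydrolases and sulfatases held calls in both directions. Gaa (acid α-glucosidase, which degrades glycogen and is lost in Pompe disease; chr11:119158713-119176280, plus strand) counted 4843, 5221, 4468 and 4893 in CTL tdT+, 5771, 4890, 5629 and 5177 in BLZ945 tdT+, and 3664, 4051, 4072 and 3344 in tdT- libraries. All tdT- values were the lowest. The change was -0.48 ± 0.11 against BLZ945 tdT+ (DESeq2 adjusted p = 9.85e-05), called in 18 of 18 other fits. Against CTL it was -0.34 ± 0.11 (DESeq2 adjusted p = 0.0145), and the call was lost without tdT- F1, tdT- M2 or CTL F2 (adjusted p 0.0541 to 0.0824).

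Hexa (the α subunit of β-hexosaminidase, lost in Tay-Sachs disease) counted 47993, 44482, 46969 and 46910 in CTL tdT+, 44946, 47131, 50860 and 47867 in BLZ945 tdT+, and 34473, 31708, 44320 and 41440 in tdT- libraries. All tdT- libraries were lower, but M1 came close to the lowest CTL library, F2. The change was -0.31 ± 0.10 against BLZ945 tdT+ (DESeq2 adjusted p = 0.0191; lost without tdT- F1, BLZ945 tdT+ M1 or BLZ945 tdT+ M2, adjusted p 0.0655 to 0.0976). Against CTL it was -0.28 ± 0.10 (DESeq2 adjusted p = 0.0455), and omission of any of 10 libraries, that is all but tdT- M1 and tdT- M2, ended the call (adjusted p 0.0548 to 0.157).

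Sgsh (heparan N-sulfatase, lost in Sanfilippo disease) was low and variable, with 1718, 1416, 1935 and 2198 in CTL tdT+, 1887, 1907, 1225 and 1283 in BLZ945 tdT+, and 735, 647, 842 and 1452 in tdT- libraries. Of the tdT- group, M2 reached into both tdT+ groups. The change was -0.83 ± 0.30 against CTL (DESeq2 adjusted p = 0.0122; 0.0522 and 0.0688 without CTL M1 or CTL M2) and -0.59 ± 0.30 against BLZ945 tdT+ (DESeq2 adjusted p = 0.0776).

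Arsb (arylsulfatase B, which acts on dermatan and chondroitin sulfate) went the other way, at 4372, 4626, 4019 and 4327 in CTL tdT+, 4061, 5554, 4191 and 4551 in BLZ945 tdT+, and 6200, 6071, 6880 and 5405 in tdT- libraries. The tdT- values were above all CTL values, and 1 BLZ945 tdT+ library, F2, overlapped them. The change was 0.47 ± 0.13 against CTL (DESeq2 adjusted p = 0.00214) and 0.38 ± 0.13 against BLZ945 tdT+ (DESeq2 adjusted p = 0.0175). The latter call was lost without tdT- M1 or BLZ945 tdT+ F1, M1 or M2 (adjusted p 0.0655 to 0.0992), and with mice as a block (adjusted p = 0.0783), although Arsb was higher in 4 of 4 mice.

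Glb1 (lysosomal β-galactosidase, the enzyme stained in senescence assays) distinguished the tdT+ groups, with 3160, 2861, 2528 and 2745 in CTL and 3877, 4156, 3643 and 3951 after BLZ945, without overlap. The tdT- libraries, at 3704, 3289, 3654 and 3141, overlapped both. The change of BLZ945 tdT+ against CTL was 0.42 ± 0.12 (DESeq2 adjusted p = 0.00477), it held without any 1 library (adjusted p up to 0.0470), and edgeR did not call it (adjusted p = 0.244). Glb1 shares 165 exonic bases with Tmppe on the same strand, a gene with a mean count of 598 beside 3487 for Glb1. The remaining members of the role were not called in the reported DESeq2 fit. Their log2 fold changes against BLZ945 tdT+ ran from -0.45 (Neu1, sialidase) to 0.18 (Ids). Omission of 1 library called Man2b1 lower (without tdT- M1, in both comparisons of tdT- cells) and Neu1 lower (without tdT- M2, against BLZ945 tdT+). Man2b1 averaged 28220, 28504 and 23964 normalised counts, Gusb 11348, 10699 and 11112, and Idua 2508, 2631 and 1944 in CTL tdT+, BLZ945 tdT+ and tdT-.

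**Figure D4:**
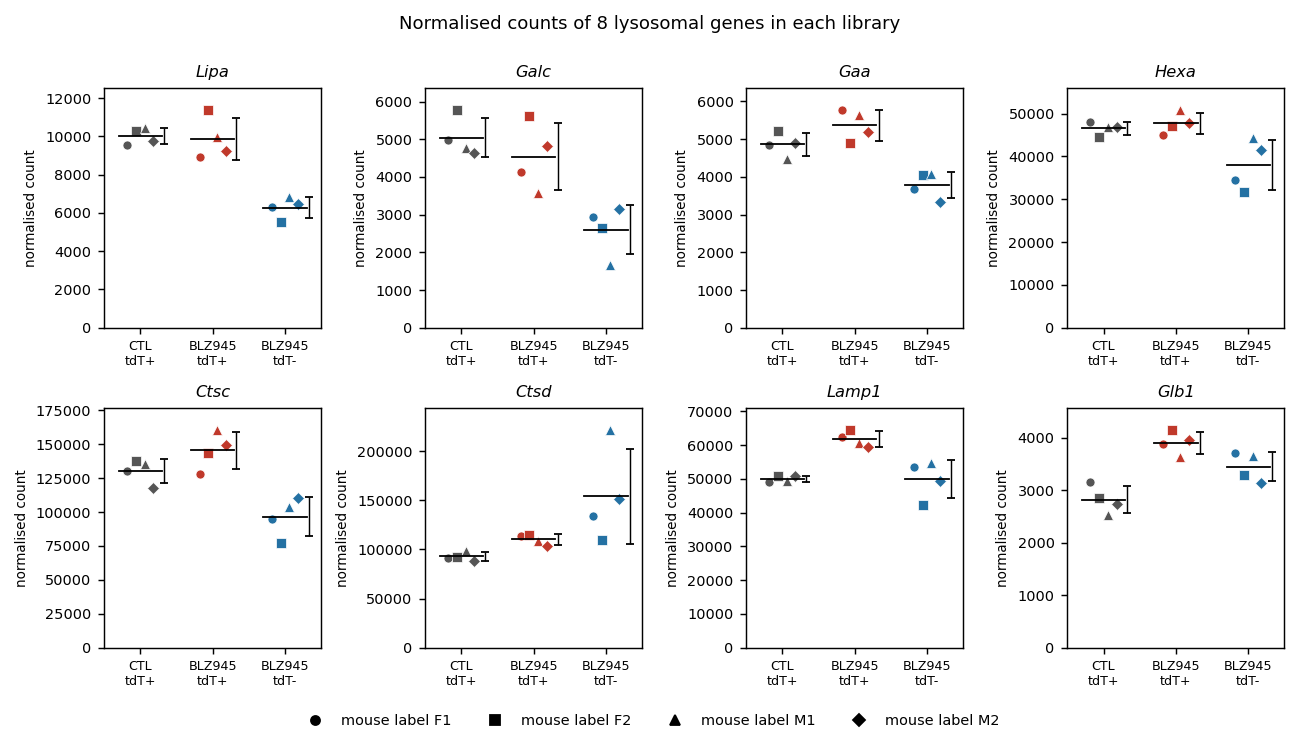
Normalised counts of 8 members in each library, by group, with 1 point per library (symbol, mouse label) and bars giving the mean ± SD of 4. For Lipa, Galc, Gaa, Hexa and Ctsc every tdT- library lies below every tdT+ library, Ctsd is highest in tdT- M1 (221992), and Lamp1 and Glb1 are higher in BLZ945 tdT+ than in CTL without overlap.

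Proteases split by enzyme. Ctsc (chr7:87927293-87960096, plus strand) counted 130194, 137395, 135707 and 117602 in CTL tdT+, 128022, 143353, 160693 and 149409 in BLZ945 tdT+, and 94492, 77164, 103941 and 110506 in tdT- libraries. All tdT- libraries were below all others. The change was -0.54 ± 0.11 against BLZ945 tdT+ (DESeq2 adjusted p = 3.39e-06) and -0.41 ± 0.11 against CTL (DESeq2 adjusted p = 0.00212), both called in 18 of 18 other fits.

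Ctsd (chr7:141929648-141941775, minus strand) rose, from 91713, 92138, 98790 and 88717 in CTL tdT+ and 114193, 114660, 109072 and 103165 in BLZ945 tdT+ to 133805, 109393, 221992 and 150930 in tdT- libraries. The tdT- group lay above CTL without overlap, while tdT- F2 fell inside the BLZ945 tdT+ range. Against CTL the change was 0.68 ± 0.16 (DESeq2 adjusted p = 1.13e-04), called in 18 of 18 other fits and 0.48 without tdT- M1. Against BLZ945 tdT+ it was 0.42 ± 0.15 (DESeq2 adjusted p = 0.0311). That call was lost with mice as a block (adjusted p = 0.0798), and without tdT- M1, tdT- M2 or any of the 4 BLZ945 tdT+ libraries (adjusted p 0.0589 to 0.116), and the log2 fold change was 0.24 without tdT- M1.

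Ctsz (cathepsin Z, a carboxypeptidase) counted 34072, 27487, 30634 and 27769 in CTL tdT+, 32758, 36656, 29945 and 31798 in BLZ945 tdT+, and 40394, 33245, 55592 and 42550 in tdT- libraries, with F2 within the tdT+ ranges. It was higher against CTL by 0.48 ± 0.14 (DESeq2 adjusted p = 0.00363). Ctsh (an aminopeptidase of the cathepsin family) counted 29186, 27844, 26698 and 25708, then 29838, 29883, 27585 and 26207, then 32154, 28041, 37696 and 36423 in the same order of groups. Its change against CTL, 0.28 ± 0.10 (DESeq2 adjusted p = 0.0372), was lost on omission of any of 9 libraries, that is all but tdT- F2, BLZ945 tdT+ M2 and CTL F1 (adjusted p up to 0.158).

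In the proteases, tdT- M1 held the highest count of the 12 libraries for Ctsd, Ctsf, Ctsh, Ctsl, Ctsz and Lgmn, with 27796 for Ctsl and 94488 for Lgmn, and it also held the highest microglia sum, 275502. Without tdT- F2, the library with neutrophil counts, 7 members were called higher against BLZ945 tdT+ (Ctsh, Ctsl, Ctsz and Lgmn in addition) and 8 lower (Atp6v1a and Ctsb in addition). Without tdT- M1, Psap alone was called higher and 10 members lower. Against CTL, the counts were 8 higher and 8 lower without tdT- F2, and 4 and 10 without tdT- M1. Ctsb averaged 239476, 283924 and 227920 normalised counts in CTL tdT+, BLZ945 tdT+ and tdT-, and was lower in the tdT- library in 4 of 4 mice with no overlap (-0.28 ± 0.11, DESeq2 adjusted p = 0.0567). Ctsa averaged 40404, 46890 and 40911, and Tpp1 (tripeptidyl peptidase 1, lost in a neuronal ceroid lipofuscinosis) 13196, 14200 and 11154.

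Of the cofactors, Psap (prosaposin, the precursor of the saposins that present sphingolipids to their hydrolases) counted 49428, 51765, 57749 and 53709 in CTL tdT+, 57304, 55543, 53020 and 54090 in BLZ945 tdT+, and 74748, 71605, 58210 and 59210 in tdT- libraries. All tdT- libraries were the highest, F1 and F2 by most. The change was 0.29 ± 0.09 against CTL (DESeq2 adjusted p = 0.0129; lost without tdT- F1, tdT- F2, CTL F1 or CTL F2, adjusted p 0.0539 to 0.0734). Against BLZ945 tdT+ it was 0.24 ± 0.09 (DESeq2 adjusted p = 0.0550), called with mice as a block. Grn (progranulin, which is processed to granulins in the lysosome) averaged 73635, 75468 and 63006, Npc2 17925, 17892 and 18980, and Npc1, its partner in cholesterol export, 2442, 2519 and 2399 normalised counts, without a call.

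Membrane proteins differed between the tdT+ groups as well. Lamp1 (a major glycoprotein of the lysosomal membrane; chr8:13209161-13225338, plus strand) counted 49204, 50919, 49230 and 50773 in CTL tdT+, 62518, 64546, 60566 and 59336 in BLZ945 tdT+, and 53464, 42209, 54565 and 49483 in tdT- libraries. The BLZ945 tdT+ group stood above both others without overlap, and the tdT- group surrounded CTL. Lamp1 was higher in BLZ945 tdT+ than in CTL by 0.27 ± 0.08 (DESeq2 adjusted p = 0.0181; edgeR adjusted p = 0.369). That call was lost without BLZ945 tdT+ F1, F2 or M1 or CTL F1, M1 or M2 (adjusted p 0.0577 to 0.113). In tdT- cells it was lower than in BLZ945 tdT+ cells, with a log2 fold change of -0.29 ± 0.08 (DESeq2 adjusted p = 0.00352), a call that held without any 1 library but not with edgeR (adjusted p = 0.0610).

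Laptm5 (a lysosomal membrane protein of blood cells) counted 53321, 57558, 57767 and 53393 in CTL tdT+, 56374, 49973, 54436 and 55808 in BLZ945 tdT+, and 61371, 58182, 71498 and 67760 in tdT- libraries, which were the highest. It rose by 0.24 ± 0.08 against BLZ945 tdT+ (DESeq2 adjusted p = 0.0173; lost without tdT- M1, tdT- M2, BLZ945 tdT+ F2 or BLZ945 tdT+ M1, adjusted p 0.0630 to 0.0959). Lamp2 averaged 26822, 34306 and 28073 and Cd68 33864, 43075 and 36072 normalised counts in CTL tdT+, BLZ945 tdT+ and tdT-. Both were higher in every BLZ945 tdT+ than in every CTL library, with DESeq2 adjusted p of 0.0559 for Lamp2 and 0.231 for Cd68. Cd63, Scarb2 (the receptor that carries β-glucocerebrosidase to the lysosome), Cln3 and Mcoln1 were not called, with log2 fold changes between -0.27 and -0.03 against BLZ945 tdT+.

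Of the 7 proton pump subunits, 3 were called lower in tdT- cells against CTL and 0 higher. Atp6v0c (the proteolipid subunit of the membrane sector) counted 7002, 6320, 7292 and 7200 in CTL tdT+, 6216, 6373, 6089 and 6196 in BLZ945 tdT+, and 5634, 5787, 5586 and 5525 in tdT- libraries. The 4 tdT- values were close to each other and below all others. The change against CTL was -0.29 ± 0.07 (DESeq2 adjusted p = 8.42e-04; edgeR adjusted p = 0.0424). It held without any 1 library and was lost with the mouse label as a block (adjusted p = 0.123), where the label is only a shared number.

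Atp6v1a (the catalytic subunit that hydrolyses ATP; chr16:43905765-43960068, minus strand) counted 3928, 5455, 5429 and 5790 in CTL tdT+, 5722, 4059, 4974 and 4499 in BLZ945 tdT+, and 3876, 3828, 2716 and 1894 in tdT- libraries. The tdT- values were the lowest, with F1 next to CTL F1. The change was -0.64 ± 0.23 against CTL (DESeq2 adjusted p = 0.0152; lost without tdT- M1 or CTL F2, M1 or M2, adjusted p 0.0530 to 0.0697). Against BLZ945 tdT+ it was -0.53 ± 0.23 (DESeq2 adjusted p = 0.0505), called lower with mice as a block. Atp6v1b2 counted 4932, 6272, 6786 and 6570, then 5510, 6242, 6230 and 5262, then 4430, 4899, 5154 and 4398 in the same order of groups, with 1 CTL library, F1, inside the tdT- range. Against CTL its log2 fold change was -0.34 ± 0.12 (DESeq2 adjusted p = 0.0368; lost without tdT- F1, tdT- M2 or CTL F2, M1 or M2, adjusted p 0.110 to 0.165). Atp6v0d1, Atp6v1h, Atp6ap1 and Tcirg1, the a3 subunit of the membrane sector, were not called, and Tcirg1 had the highest fold change of the pump against CTL, 0.41 ± 0.32.

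The regulators gave no call. Tfeb counted 595, 942, 764 and 1330 in CTL tdT+, 716, 1016, 1010 and 358 in BLZ945 tdT+, and 1306, 846, 976 and 1071 in tdT- libraries, which overlapped. Tfe3 counted 3196, 3965, 3606 and 3852, then 4088, 2771, 3362 and 2853, then 4589, 2513, 2571 and 3006 in the same order. Log2 fold changes of tdT- against BLZ945 tdT+ were 0.20 ± 0.27 for Tfeb and -0.03 ± 0.17 for Tfe3, and neither was called in any of 18 other fits. Both proteins are regulated mainly by their location in the cell, which mRNA counts do not show.

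Promoters were searched for the E-box letters CACGTG and for the longer palindrome TCACGTGA, which lies in the motif that TFEB binds. RefSeq promoters of build GRCm38.p6, 250 bases before to 50 after a start site, were available for 42 members (some with several starts), and Ctsb, Ctsh, Asah1, Npc1, Atp6v1b2 and Atp6v1h had none here. CACGTG stood in 14 of the 42 (33.3%), beside 8.09% of 27025 genes, and TCACGTGA, which contains it, in 6 (14.3%), beside 1.12%. The 6 were Ctsa, Ctsd, Cln3, Mcoln1, Atp6v0d1 and Atp6v1a. Both strands are covered because both words are palindromes. Of the 17 members called in some comparison, 15 had a promoter and 6 held CACGTG. These 6 are shown because the word stood in members called in either direction. Ctsd was called higher in tdT- cells, and Glb1 and Lamp1 in BLZ945 tdT+ cells. Gaa, Sgsh and Atp6v1a were called lower in tdT- cells, and Lamp1 was also called lower in tdT- against BLZ945 tdT+ cells. Capitals mark CACGTG, and each stretch is on the strand of the gene, upstream of the start.
Ctsd, chr7:142388055-142388077 (minus): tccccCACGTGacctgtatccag
Ctsd, chr7:142387908-142387937 (minus): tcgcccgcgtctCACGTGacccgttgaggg
Lamp1, chr8:13159096-13159125 (plus): atatCACGTGgtccagcgccCACGTGatgc
Lamp1, chr8:13159128-13159156 (plus): actggCACGTGaccacatCACGTGcggaa
Glb1, chr9:114401018-114401047 (plus): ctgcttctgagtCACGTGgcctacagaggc
Gaa, chr11:119267811-119267840 (plus): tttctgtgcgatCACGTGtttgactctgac
Sgsh, chr11:119355522-119355551 (minus): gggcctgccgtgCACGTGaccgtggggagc
Atp6v1a, chr16:44139373-44139402 (minus): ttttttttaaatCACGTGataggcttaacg
Lamp1 held the word 4 times within 61 bases of its start. The windows of Lipa, Galc, Ctsc, Hexa, Arsb, Psap, Laptm5, Ctsz and Atp6v0c did not hold it, so called members were found with and without these letters in both directions. A match is a description of the letters only.

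Further genes of the pathway were read from 7 lists. As background, 2.86% of all genes were called higher and 3.51% lower in tdT- against BLZ945 tdT+. Against CTL these shares were 3.27% and 3.49%, and in BLZ945 tdT+ against CTL 0.481% and 0.474%. The lists are short, so counts near these shares are not read as a result about a list. Of 31 other lysosomal hydrolases tested, 2 were higher and 3 lower against BLZ945 tdT+ (2 and 1 against CTL, 0 in BLZ945 tdT+ against CTL). Ctss, a cysteine protease of antigen processing, counted 133599, 120102, 125244 and 111298 in CTL tdT+, 128824, 143034, 110869 and 137970 in BLZ945 tdT+, and 197798, 168567, 265340 and 244639 in tdT- libraries. All tdT- libraries were above all others. Ctss rose by 0.72 ± 0.13 against BLZ945 tdT+ (DESeq2 adjusted p = 4.16e-07) and by 0.81 ± 0.13 against CTL (DESeq2 adjusted p = 7.99e-09). Pla2g15 (-0.38) and Scpep1 (-0.28) were among those lower against BLZ945 tdT+, and edgeR called neither (adjusted p of 0.0817 and 0.106). Their calls were lost in 3 and 7 of 18 other fits, edgeR and the omission of single libraries among them.

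Of 23 other membrane and lipid proteins tested, 1 was higher and 3 lower against BLZ945 tdT+, and 3 and 3 against CTL. Hgsnat, the acetyltransferase of heparan sulfate breakdown, counted 24194, 25223, 24255 and 20009 in CTL tdT+, 30909, 36967, 35825 and 38786 in BLZ945 tdT+, and 6121, 4324, 5355 and 8542 in tdT- libraries. It separated all 3 groups, with -2.53 ± 0.17 in tdT- against BLZ945 tdT+ (DESeq2 adjusted p = 4.94e-50), -1.92 ± 0.17 in tdT- against CTL (DESeq2 adjusted p = 7.94e-29) and 0.50 ± 0.18 in BLZ945 tdT+ against CTL (DESeq2 adjusted p = 0.0313; edgeR adjusted p = 0.369), the last lost in 7 of 18 other fits. Sgsh acts in the same degradation route. Against BLZ945 tdT+, Gm2a, which presents gangliosides for degradation, had a log2 fold change of 0.62 ± 0.13 and Laptm4a of -0.33 ± 0.08 (DESeq2 adjusted p of 4.09e-05 and 0.00115). Ctns, the cystine exporter, was lower (-0.65 ± 0.23, DESeq2 adjusted p = 0.0159), a call lost in 5 of 18 other fits. These were edgeR (adjusted p = 0.0688), mice as a block (adjusted p = 0.0723) and omission of tdT- F1, BLZ945 tdT+ F1 or BLZ945 tdT+ M2. Against CTL, Slc29a3 was higher (0.66 ± 0.19) and Tmem192 lower (-0.54 ± 0.19), and edgeR called neither (adjusted p of 0.0504 and 0.0615). The Tmem192 call was also lost without CTL F2 or CTL M2. Gpnmb had 88.7, 0, 290 and 0 normalised counts in tdT- libraries beside 0 in all CTL libraries. The BLZ945 tdT+ libraries held 73.6, 85.7, 0 and 0. Gpnmb was called higher in tdT- against CTL, but the call rested on 2 libraries and was lost in 7 of 18 other fits. These included edgeR (adjusted p = 0.201) and the omission of BLZ945 tdT+ F2 or any of the 4 CTL libraries.

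**Figure D5:**
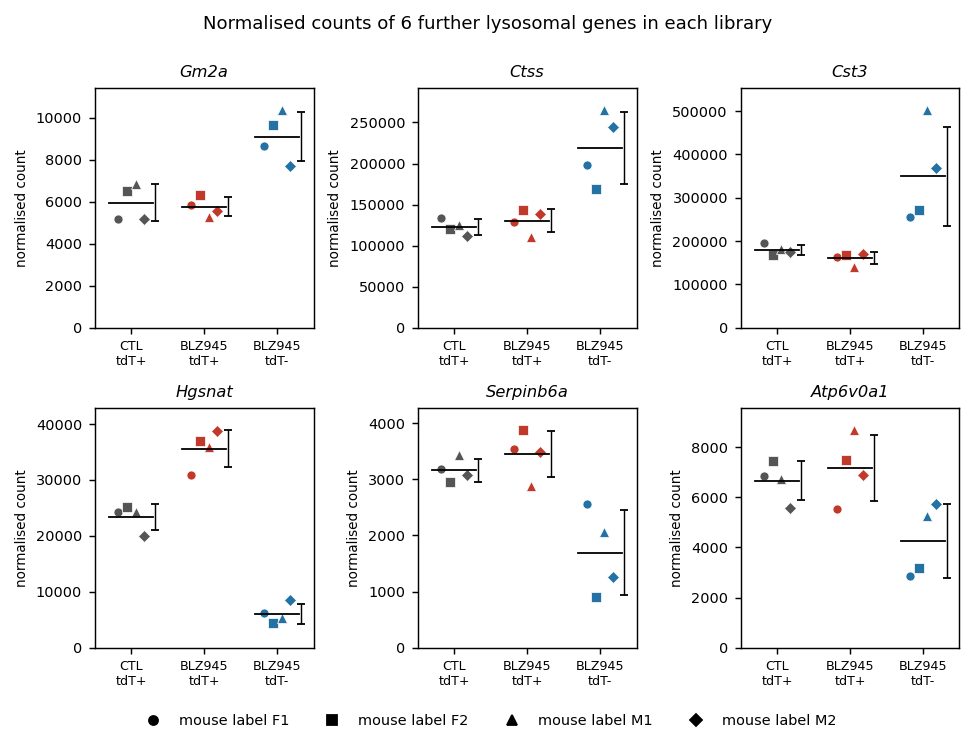
Normalised counts of 6 further genes of the lysosomal pathway in each library, with 1 point per library (symbol, mouse label) and bars giving the mean ± SD of 4. Gm2a, Ctss and Cst3 are highest in tdT- libraries, with M1 at the top, and Hgsnat lies at 8542 or less in tdT- libraries and at 20009 or more in all others.

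Among 5 cathepsin inhibitors tested, Cst3 (cystatin C, a secreted inhibitor) rose by 1.08 ± 0.17 against BLZ945 tdT+ (DESeq2 adjusted p = 1.09e-09; 0.108 with mice as a block), from 160664 to 349609 normalised counts on average, in 4 of 4 mice. Cst7 rose from 31.8 to 730 normalised counts on average (DESeq2 adjusted p = 0.00600), with 64.1 in tdT- M2. The Cst7 call was lost with edgeR (adjusted p = 0.1495), without tdT- M1 (adjusted p = 0.0548), and without BLZ945 tdT+ F1 or CTL M2. Serpinb6a, one of a family of close copies whose counts are uncertain, had a log2 fold change of -0.90 ± 0.28 (DESeq2 adjusted p = 0.00352; edgeR adjusted p = 0.0510). Of 11 other pump subunits, Atp6v0a1 was lower against both groups (-0.64 ± 0.23 and -0.54 ± 0.22) and Atp6v0a2, another form of the same subunit, higher against CTL (1.14 ± 0.41). edgeR called neither, with adjusted p of 0.0917, 0.140 and 0.0843, and Atp6v0a2 was also lost without tdT- M1 (adjusted p = 0.0672). The Atp6v0a1 calls were lost in 5 of 18 other fits against BLZ945 tdT+ and in 11 of 18 against CTL, edgeR included.

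Of 16 sorting genes tested, Sorl1 was higher (1.11 ± 0.33) and the adaptor Gga1 lower (-0.58 ± 0.16) in tdT- against BLZ945 tdT+, and M6pr, a receptor for mannose 6-phosphate tags, was higher against CTL (0.47 ± 0.15). The M6pr call was lost with edgeR (adjusted p = 0.0960), without tdT- M1 (adjusted p = 0.0701) and without CTL F2 or CTL M1. Of 16 nutrient sensing genes and other relatives of Tfeb, 0 were called against BLZ945 tdT+. Lamtor1, part of the complex that anchors mTORC1 signalling at lysosomes, was lower than CTL in tdT- (-0.45 ± 0.11) and in BLZ945 tdT+ cells (-0.34 ± 0.12), and Fnip2 was lower in tdT- cells (-1.38 ± 0.63). Of 18 autophagy genes, Gabarap was lower than CTL in tdT- (-0.42 ± 0.09) and in BLZ945 tdT+ cells (-0.35 ± 0.09), at 11330 and 11754 beside 15332 normalised counts, and Gabarapl1 was lower in tdT- cells (-0.81 ± 0.28). edgeR did not call Lamtor1 and Gabarap in BLZ945 tdT+ cells (adjusted p of 0.332 and 0.244) or Fnip2 (adjusted p = 0.113), which was also lost without tdT- M1 (adjusted p = 0.0734). The Lamtor1 call in BLZ945 tdT+ cells was lost in 9 of 18 other fits, edgeR included. Gabarapl1 was lost with the mouse label as a block and without CTL M1 or CTL M2. The 2 comparisons with CTL share their control libraries.

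Other markers were read in the same libraries. Of the 5 neutrophil, 4 monocyte, 5 red blood cell, 4 dendritic cell, 5 lymphocyte, 4 fibroblast, 4 endothelial and 4 osteoclast genes, neutrophil genes were at or near 0 outside tdT- F2, and the osteoclast genes Calcr and Ocstamp had 0 counts in all 12 libraries. Summed monocyte genes were 1549 to 3885 in CTL tdT+, 847 to 1981 in BLZ945 tdT+ and 3076 to 50749 in tdT- libraries, the last in F2. Ccr2 was the monocyte gene called higher against both tdT+ groups. Red blood cell genes reached 8778, 15807 and 36171 summed normalised counts in the 3 groups. Dendritic cell genes summed to 2959 to 6532, 1164 to 3740 and 985 to 5604, and Zbtb46 among them was called lower in tdT- against both tdT+ groups. Lymphocyte, fibroblast and endothelial genes summed to at most 688, 421 and 184 in any library.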

How the data were processed

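The deposited values were raw counts per gene. Per the labels and file headers, the authors demultiplexed with bcl2fastq 2.20, aligned with STAR 2.7.11a and counted exons of a GENCODE M33 annotation (GRCm39) with tdTomato added, using featureCounts 2.0.6 by gene name, without strand. RNA was amplified by PCR before sequencing, so counts are not independent molecules. Of the members, 18 share exonic bases with another gene, 3 of them on the same strand, and reads of antisense neighbours cannot be told apart. Gene lengths in the deposited table (bases of merged exons) were used for TPM only. The submitters' notes name DESeq2 1.46.0. All 12 columns were assigned by library number, and 0 were left over. The CTL column numbered as the M2 library carries the label M1.

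The members and all lists were chosen with earlier results of these data known. Following the methods of the study, a gene was dropped when 75% or more of the libraries (9 of 12) held under 10 counts of it, and DESeq2 1.42.0 (two-sided Wald test, all 12 libraries, group as the only term) was run in R 4.3.3, with apeglm 1.24.0 shrinkage and Benjamini-Hochberg adjustment over all genes. "Called" means an adjusted p of at most 0.05, and the bound of 2-fold is a shrunken log2 fold change of 1. SE is the posterior SD of apeglm. The scripts were tested on simulated data. Alternatives were edgeR 4.0.16 (quasi-likelihood test, TMM), TMM factors within DESeq2, size factors without the members, no filter on low counts, unshrunken fold changes, the mouse label as a block, and the omission of each library. The tdT- and BLZ945 tdT+ libraries of a label come from the same mouse per the design text, so the block is a real pairing there. Block fits used only the libraries of both groups compared, so the remaining group did not enter their dispersion. Deviations from group means of paired libraries correlated at 0.106 to 0.264 over genes with a mean above 1000 and at -0.00463 to 0.0352 over all genes. Libraries sharing only a label with CTL mice correlated at 0.0384 to 0.175 (BLZ945 tdT+) and 0.0264 to 0.184 (tdT-) over genes above that mean. These ranges overlap that of the paired libraries. All members could be named, with values per library for called members and for Tfeb and Tfe3, and up to 3 called genes per direction from each list, some of which are not reported here. Replicates are separate mice. Promoter sequences were those of RefSeq (GRCm38.p6), a build other than that of the counts, and no coordinate was converted. Python 3.11.15 and matplotlib 3.10.9 were used for figures.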

Additional observations from a re-analysis of the deposited data

Results flagged for a closer look

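Of 144 groups of 4 libraries checked (47 members and their summed share, in 3 groups), 5 held a library far from the other 3, where chance flags about 1 in 20 groups, or 7.2. The gap to the nearest library, as a part of the whole range, was 0.897 for Ctsb in tdT- F2 (167399 normalised counts against 243127 to 251802), 0.887 for Man2b1 in CTL M2 (24229 against 29309 to 29958), 0.961 for Idua in BLZ945 tdT+ F1 (3553 against 2295 to 2344), 0.842 for Npc2 in BLZ945 tdT+ M1 (16587 against 18206 to 18510) and 0.877 for Atp6ap1 in CTL M2 (13753 against 16969 to 17421). Effects of mice labelled F and M were compared with an edgeR interaction term. It called 0 of the 13724 genes tested in any comparison, so 0 calls among the members says nothing particular to them. Unadjusted p was under 0.05 for 8, 2 and 6 members in tdT- against BLZ945 tdT+, BLZ945 tdT+ against CTL and tdT- against CTL. The share of all genes at that unadjusted p was not counted for this term.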

How the results depend on the processing

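Against BLZ945 tdT+, the count of members called higher in tdT- cells was 3 and fell to 0 with edgeR. It ran from 0 to 7 on omission of 1 library: 7 without tdT- F2, 1 without tdT- M1, BLZ945 tdT+ F1 or BLZ945 tdT+ M2, and 0 without BLZ945 tdT+ M1. The count called lower was 6, became 10 with TMM factors in DESeq2, and ran from 6 to 10 on omission of 1 library (10 without tdT- M1 or tdT- M2). With mice as a block, 2 were higher and 7 lower. Against CTL, the count called higher in tdT- cells was 5, became 1 with edgeR and 3 with the mouse label as a block, and ran from 3 to 8 on omission of 1 library (3 without tdT- F1 or CTL F2, 8 without tdT- F2). The count called lower was 9, became 4 with edgeR and 5 with the block, and ran from 5 to 10 (5 without CTL F2, M1 or M2). The count past 2-fold was 0 and became 1, Sgsh, without tdT- M2 (log2 fold change -1.21). For BLZ945 tdT+ against CTL, the count called higher was 2, became 0 with edgeR and 6 with the block, and ran from 1 to 5 on omission of 1 library (5 without tdT- F2, and 1 without BLZ945 tdT+ F1 or F2 or CTL F1, M1 or M2). In both comparisons with CTL the label is only a shared number, since the CTL mice are other animals. Each block fit also left out the group not compared, so effects of the label and of this omission cannot be told apart. The causes were not tested. No called member changed direction in any of these fits. Over all genes, DESeq2 called 393 higher and 482 lower against BLZ945 tdT+ (edgeR 143 and 234), 449 and 479 against CTL (edgeR 200 and 246), and 66 and 65 in BLZ945 tdT+ against CTL (edgeR 7 and 2; 224 and 165 with the block; 143 and 113 without the filter on low counts).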
